A study of Drosophila melanogaster with 4 samples.

Results

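The genes described here were the 66 named genes of an adult Drosophila array series that lay above 0 on each of its 4 arrays. A value above 0 was read as more signal from flies sprayed with a black pepper extract than with ethanol. That direction was assumed. The genes were chosen by their measured values, so their position above 0 is the choice itself and no finding. A member had 1 gene symbol in the platform's annotation that was not a provisional number, a spot-averaged and median-centred log2 ratio above 0 on all 4 arrays, and a mean of at least 0.2. Of 2377 genes with 1 symbol, 1464 were characterised in this way, and 85 of those met the values, a share of 5.81%. A fixed set of symbols was left out (among them sarcomere, cuticle, chemosensory, ribosomal and respiratory chain genes), which removed 19 and left 66.

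The flies were Oregon-R females, 10 to 20 days after emergence, in pools of about 240 insects. The treated pools received an extract of Piper nigrum seeds (2 mL, dissolved to 0.9 mg/mL in 99% ethanol), applied topically in a Potter's tower, a device that delivers an even spray. The control pools received 2 mL of 99% ethanol alone, so both groups carried the solvent, and no group without ethanol was analysed here. RNA was taken after 4 h, labelled directly and hybridised on 2-colour arrays with 16896 spots. The pools are numbered 1 and 3 in the labels, and each was hybridised on 2 arrays of opposite dye order. Both arrays of 1 pool together therefore count as 1 replicate (n = 2 pools), and every SD below is over the 2 pool means. Whole flies were used, so that fewer cells of a type and less RNA per cell cannot be told apart.

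The values are log ratios as the authors deposited them. The base was taken as 2, and the direction was taken as extract over ethanol. Neither was settled by the sources used here. Were the ratios deposited by dye, the values of the members would be dye effects, and with ethanol on top every sign would turn round. Over all spots the 4 arrays correlated with each other by only 0.0187 to 0.0881 (Pearson, across spots, which are no replicates). The ratios give no expression level, so the labelled sex and tissues could not be checked by how strongly their markers were expressed. Of 26 marker genes listed, 8 were measured. The vitellogenin receptor gene yl averaged -0.013, the testis genes dj and ocn averaged -0.019 and 0.39, and the male accessory gland genes Acp36DE and Acp53C14a averaged -0.0088 and 0.026. Of the other tissue markers, the fat body gene apolpp averaged -0.54 and lay below 0 on all 4 arrays, while the neuronal gene nSyb averaged 0.25 and lay above 0 on all 4, as did the muscle gene Act88F at 1.13. Their part in the members' values was not tested.

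Black pepper fruits hold amides that are known as insect poisons. The members were chosen by value, after symbols of several gene families had been left out. Their mix of roles is therefore partly set by the choice, and they are described here by role. The roles are transcription and RNA, defence and extracellular enzymes, matrix and cuticle, muscle and cell shape, mitochondria and lipids, protein turnover, and signalling. In an adult fly such genes work in many tissues at once, among them flight muscle, fat body, gut, nervous system and ovary.

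Across the members the mean log2 ratio ran between 0.20 and 0.79, with a median of 0.30. The median over all 1464 characterised genes was 0.0045. Only 6 members had a mean of 0.5 or more, and 32 lay under 0.3. Per array, the members' median was 0.32 and 0.25 in replicate 1 and 0.25 and 0.27 in replicate 3, each with extract in Cy3 first. The opposite choice, below 0 on every array with a mean of -0.2 or less, was met by 68 characterised genes, or 4.64%. Leaving out the same symbols took 19 of 85 genes above 0 and 4 of 68 below it, which left 66 and 64. The symbols left out included genes above the members' highest mean: Cyp12d1-p at 1.33, Act88F at 1.13, aay at 1.03 and Vajk3 at 0.89. The counts of 66 and 64 thus lie close only after the symbols were left out, against 85 and 68 before. The members' highest mean also holds only after that removal.

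**Figure D1:**
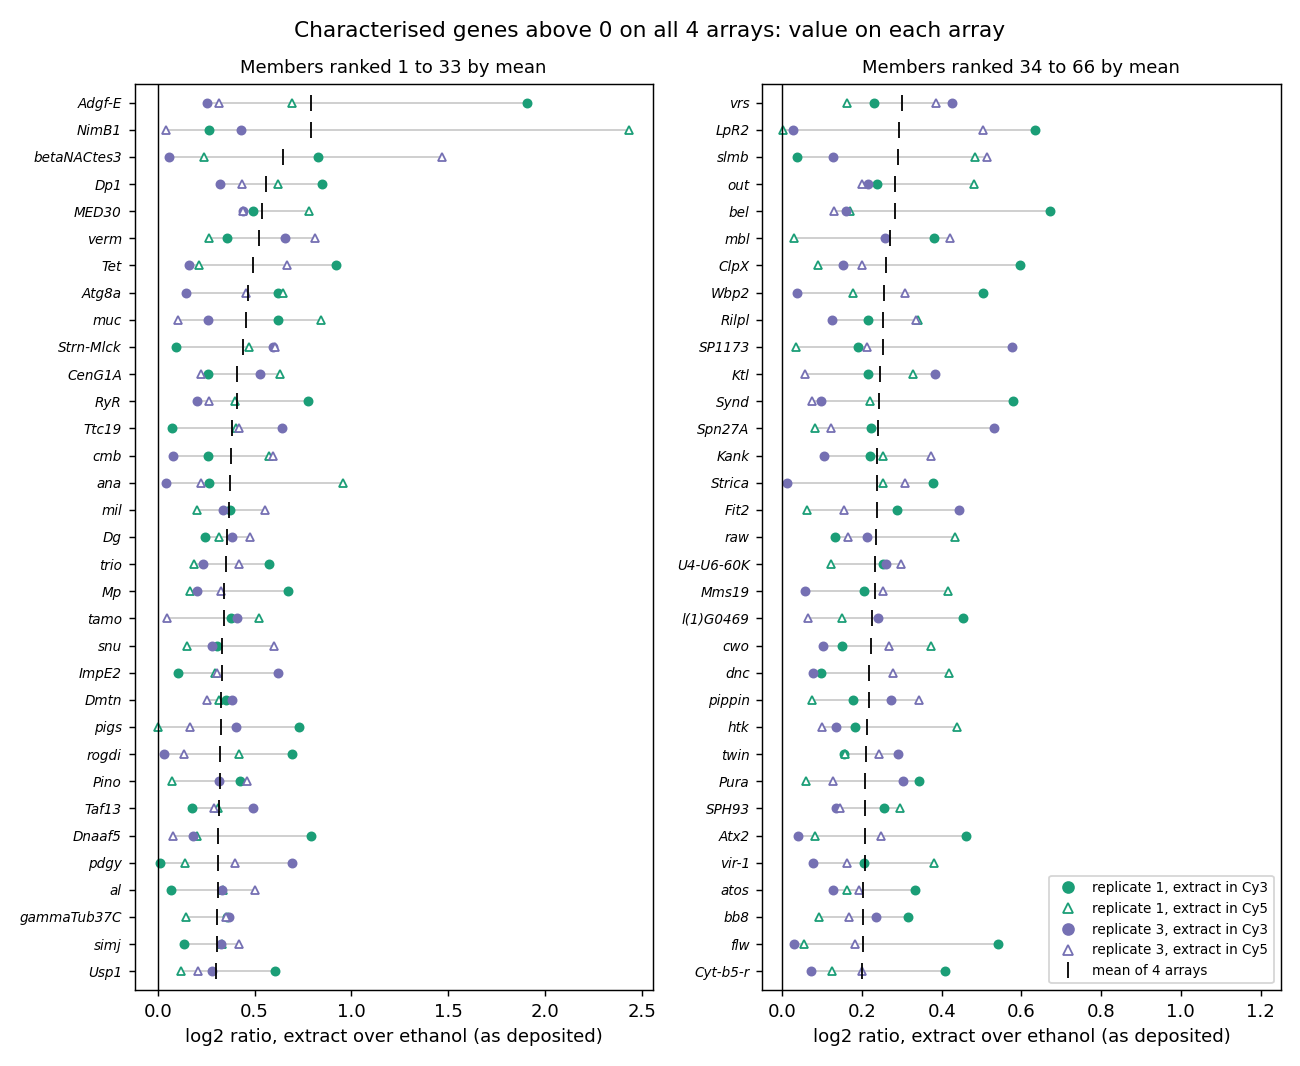
Log2 ratio of extract over ethanol for each of the 66 members (rows, ranked by mean) on the 4 arrays (filled circles, extract in Cy3; open triangles, extract in Cy5; green, replicate 1; purple, replicate 3); the black tick is the mean of 4 arrays. The means lie between 0.20 and 0.79, while single arrays reach 2.44 for NimB1 and 1.91 for Adgf-E; the 2 panels have different horizontal scales.

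No member passed the test of extract against ethanol. With the dye swaps averaged per pool, limma's moderated test (two-sided, Benjamini-Hochberg adjustment over 13607 features) called 6 features, or 0.0441%, at an adjusted p under 0.05, and 0 of the 66 members. The smallest adjusted p among the members was 0.327, for betaNACtes3. At an unadjusted p under 0.05, 18 members were counted, and 4.41% of all features were below that p and above 0. Because the same ratios chose the members, nothing is read from the 18. The fit's median standard error for a member was 0.151, beside a median mean of 0.30, and the number of arrays limits the precision. All values below are therefore levels of the log ratio, and none is called a change.

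Among the 16 genes of transcription, chromatin and RNA the median mean was 0.28. Dp1 encodes a protein with many KH domains of the vigilin type, which binds RNA and single-stranded DNA. It stood at 0.85 and 0.62 in replicate 1 and at 0.32 and 0.43 in replicate 3, here and below with the array carrying extract in Cy3 first (mean 0.56 ± 0.25, SD, n = 2, or 1.47-fold). Both arrays of replicate 1 lay above both of replicate 3, and all 8 of its spot values were above 0. MED30, a subunit of the Mediator complex that links transcription factors to RNA polymerase, stood at 0.49 and 0.78 in replicate 1 and at 0.44 and 0.44 in replicate 3 (mean 0.54 ± 0.14, SD, n = 2). Here 3 arrays lay close together and 1 array of replicate 1 stood higher. The other measured genes with symbols in MED did not meet the choice: MED15 averaged -0.11, MED17 averaged -0.12 and MED26 averaged 0.052. The Mediator gene skd averaged -0.094. Taf13, a subunit of the general factor TFIID, averaged 0.32, and the other measured gene of that name, Taf3, averaged -0.21. These relatives were looked up by symbol after the members' values were seen, and the differences between them were not tested.

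Tet, the fly member of the TET dioxygenase family, stood at 0.92 and 0.21 in replicate 1 and at 0.16 and 0.67 in replicate 3 (mean 0.49 ± 0.11, SD, n = 2). The pool means were alike while the arrays within each pool were not, and the higher array was the Cy3 one in replicate 1 and the Cy5 one in replicate 3. The tamo product controls nuclear import of the Rel-type factor Dorsal. The gene stood at 0.38 and 0.52 in replicate 1 and at 0.41 and 0.048 in replicate 3 (mean 0.34 ± 0.16, SD, n = 2), where 1 array of replicate 3 was low. Below these came the homeobox gene aristaless (al, 0.31), simj (0.30), whose product belongs to the nucleosome remodelling and deacetylase complex, the Yorkie co-activator gene Wbp2 (0.26), htk (0.21), an ARID-type chromatin gene, and atos (0.20). The clock repressor gene clockwork orange (cwo) averaged 0.22. Of 6 measured genes on a clock list it was the only member, and the other 5 were Clk at -0.084, per at -0.16, Pdp1 at 0.095, jet at -0.068 and Pdfr at -0.0017.

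The RNA genes of the group were the DEAD-box helicase gene belle (bel), the splicing regulator gene muscleblind (mbl), the deadenylase gene twin, the spliceosome gene U4-U6-60K and the ataxin-2 gene Atx2. The belle gene averaged 0.28, but 1 array stood at 0.67 and the other three at 0.13 to 0.17. For twin, which encodes the fly CCR4 deadenylase that shortens poly(A) tails, the arrays gave 0.15 and 0.16 in replicate 1 and 0.29 and 0.24 in replicate 3 (mean 0.21). Its 8 spot values all fell between 0.12 and 0.35, a narrow span for a member of low mean. The means of mbl, U4-U6-60K and Atx2 were 0.27, 0.23 and 0.21. Of 19 measured genes on a list of RNA processing and binding, 3 were members (bel, mbl and twin) and 2 belonged to the opposite set, with a list median of 0.016.

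The 2 highest members stood among 5 genes of immunity and extracellular enzymes. Adgf-E belongs to the adenosine deaminase-related growth factors, a family that includes secreted enzymes which break down extracellular adenosine. Its log2 ratio was 1.91 and 0.69 in replicate 1 and 0.26 and 0.32 in replicate 3 (mean 0.79 ± 0.72, SD, n = 2, or 1.73-fold). Both spots of the gene lay near each other on every array, including the highest, and without that array the mean was 0.42. NimB1 belongs to the Nimrod genes, several of which act in the uptake of bacteria and dead cells by blood cells. It stood at 0.27 and 2.44 in replicate 1 and at 0.43 and 0.043 in replicate 3 (mean 0.79 ± 0.79, SD, n = 2). The value of 2.44 was the average of 1 spot at 4.23 and 1 at 0.64, and without that array the mean was 0.25. NimC1, the other measured gene with a Nim symbol, averaged -0.016.

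The remaining 3 genes of this group lay low. Spn27A, a serpin that restrains melanisation and the Toll pathway, averaged 0.24, while the serpin genes Spn38F and Spn42Dc averaged -0.11 and -0.094. SPH93, a serine protease homologue, averaged 0.21, with only 4 of 8 spot values above 0. The virus-induced gene vir-1 averaged 0.21, with 8 of 8 spot values above 0. On 4 of these 5 genes replicate 1 was the higher pool, as on 41 of all 66 members and 696 of 1464 characterised genes.

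The 8 genes of matrix, cuticle and adhesion had a median mean of 0.34. Vermiform (verm) encodes a chitin-binding deacetylase that shapes the chitin of the airways. It stood at 0.36 and 0.26 in replicate 1 and at 0.66 and 0.81 in replicate 3 (mean 0.52 ± 0.30, SD, n = 2, or 1.44-fold). Both arrays of replicate 3 lay above both of replicate 1, and all 8 spot values were above 0. Snustorr (snu) encodes an ABC transporter needed for the outer barrier of the cuticle. Its values were 0.30 and 0.15 in replicate 1 and 0.28 and 0.60 in replicate 3 (mean 0.33 ± 0.15, SD, n = 2). ImpE2, a gene induced by the moulting hormone ecdysone in imaginal discs, stood at 0.11 and 0.30 in replicate 1 and at 0.62 and 0.30 in replicate 3 (mean 0.33 ± 0.18, SD, n = 2). All 3 were higher in replicate 3 by pool mean. ImpE2 was the only member among 8 measured genes on a list of nuclear receptors and ecdysone response, which also holds patterning receptors and had a median of 0.12. The list included ImpL2 at 0.15, ImpE3 at 0.17 and Eip63E at 0.18, while br stood at -0.083 and tll at -0.24.

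Dystroglycan (Dg), the receptor that ties the cell's actin skeleton to the basement membrane, stood at 0.24 and 0.32 in replicate 1 and at 0.39 and 0.48 in replicate 3 (mean 0.35 ± 0.11, SD, n = 2). The gap between its highest and lowest array was small, and its lowest spot was still at 0.17. Multiplexin (Mp), the fly collagen of the XV and XVIII type, gave 0.67 and 0.16 in replicate 1 and 0.20 and 0.33 in replicate 3 (mean 0.34 ± 0.11, SD, n = 2). Anachronism (ana) encodes a glycoprotein that glia secrete and that holds neural stem cells at rest. It stood at 0.27 and 0.96 in replicate 1 and at 0.043 and 0.22 in replicate 3 (mean 0.37 ± 0.34, SD, n = 2), and without the highest array the mean was 0.18. The kindlin gene Fit2, which acts on integrins, averaged 0.24. The monocarboxylate transporter-like gene out averaged 0.28, with 1 array at 0.48 and the other three at 0.20 to 0.24. Of 26 measured genes of adhesion and extracellular matrix on a fixed list, Mp was the only member, and the list median was 0.054. The list does not name Dg or Fit2.

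Muscle, actin and cell shape took in 13 members with a median mean of 0.31. Strn-Mlck encodes the large Stretchin proteins of muscle, some forms of which carry a myosin light chain kinase domain. Over its 4 spots it averaged 0.093 and 0.47 in replicate 1 and 0.60 and 0.60 in replicate 3 (mean 0.44 ± 0.22, SD, n = 2). Of 16 spot values 14 were above 0, and both below it lay on the lowest array. RyR, the ryanodine receptor, releases calcium from the internal store of muscle and is the target of the diamide insecticides. It stood at 0.78 and 0.40 in replicate 1 and at 0.20 and 0.26 in replicate 3 (mean 0.41 ± 0.25, SD, n = 2, or 1.33-fold). On the highest array its 2 spots gave 1.28 and 0.27, so that spread lay between spots as well as between pools. Beside these, the flight muscle actin gene Act88F, which the choice left out by symbol, gave 1.36 and 0.89 in replicate 1 and 1.14 and 1.13 in replicate 3. Its part in the muscle genes' values was not tested.

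The trio gene, known from axon guidance, stood at 0.57 and 0.19 in replicate 1 and at 0.24 and 0.42 in replicate 3 (mean 0.35 ± 0.037, SD, n = 2). It had 4 spots, and all 16 spot values were above 0. Combover (cmb), which acts in the polarity of wing hairs, gave 0.26 and 0.58 in replicate 1 and 0.076 and 0.60 in replicate 3 (mean 0.38 ± 0.058, SD, n = 2). In both pools its array with extract in Cy5 was the higher. Pickled eggs (pigs), a linker of actin and microtubules of the Gas2 type, showed the opposite order, with 0.73 and 0.0013 in replicate 1 and 0.40 and 0.17 in replicate 3 (mean 0.33 ± 0.057, SD, n = 2). Dementin (Dmtn) was counted in this group, but no role in muscle, actin or cell shape is claimed for it here. It was the most even of the 24 highest members, at 0.35 and 0.32 in replicate 1 and 0.38 and 0.26 in replicate 3 (mean 0.33 ± 0.012, SD, n = 2).

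In the rest of the group, gammaTub37C, the gamma-tubulin of the ovary and early embryo, averaged 0.31, and its 8 spot values ran between 0.11 and 0.40. It was the only member among 17 measured cytoskeleton and motor genes on a list, whose median was 0.034. The dynein arm assembly factor gene Dnaaf5 averaged 0.31, yet only 11 of its 16 spot values were above 0. Its 4 spots disagreed. On the array of replicate 1 with extract in Cy3, 2 gave 1.55 and 1.85 and the others -0.33 and 0.096. On the other array of replicate 1 the same 2 spots gave 0.53 and 0.60 and the others -0.16 and -0.17. In replicate 3 these 2 spots did not both stand above the others. Without the array that held the value of 1.85 the mean of Dnaaf5 was 0.15. Synd (an F-BAR protein of membrane curvature), Kank (a scaffold of the cell cortex), raw (a brake on JNK signalling in dorsal closure) and Pura averaged 0.24, 0.24, 0.24 and 0.21. The protein phosphatase 1 beta gene flapwing (flw) was among the 3 members of lowest mean, at 0.54 and 0.054 in replicate 1 and 0.030 and 0.18 in replicate 3 (mean 0.20).

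**Figure D2:**
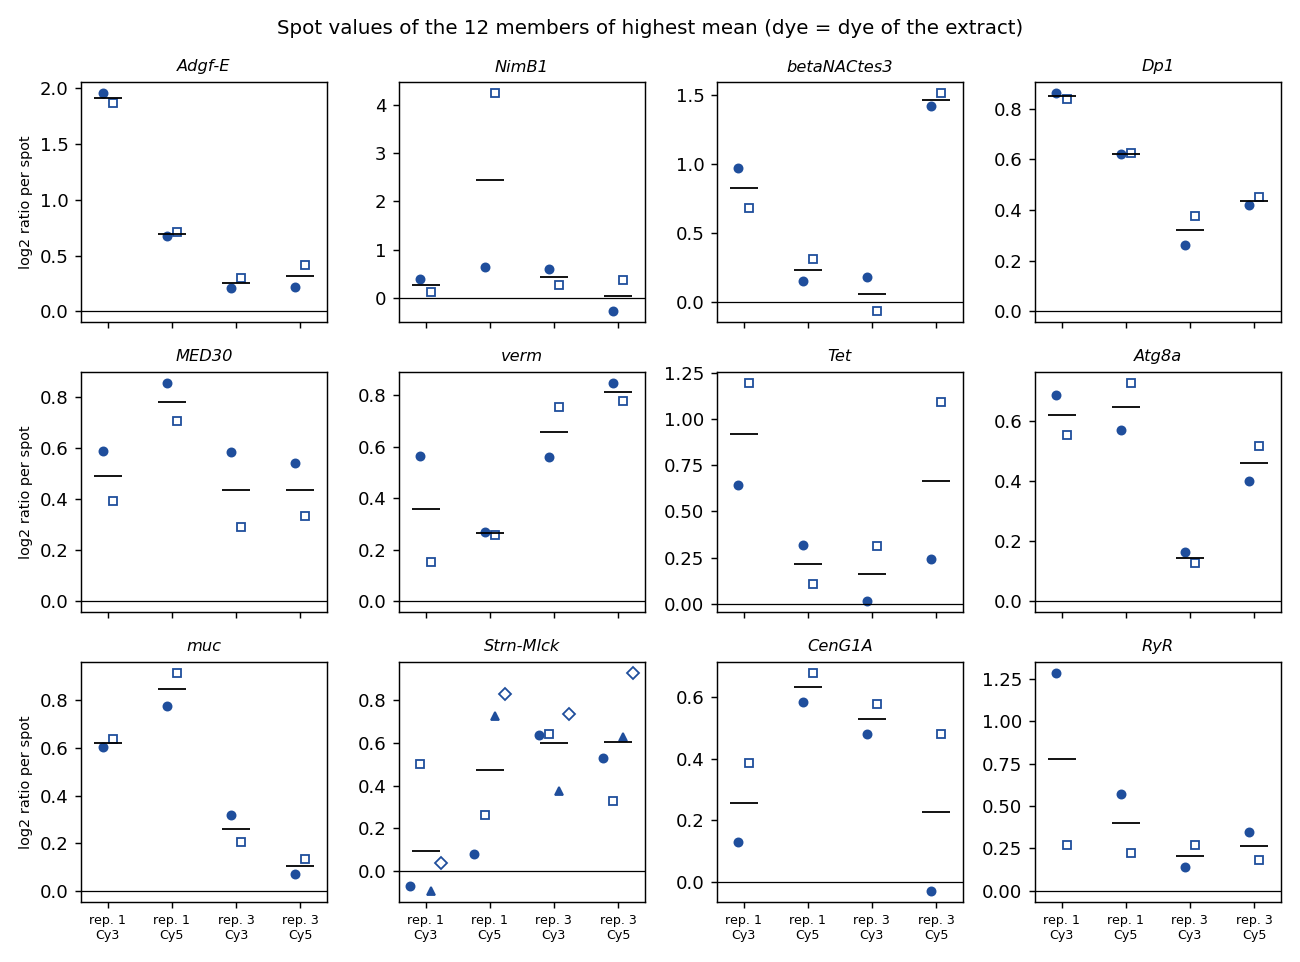
Log2 ratio of every spot of the 12 members of highest mean on the 4 arrays (rep. 1 and rep. 3 with the extract in Cy3 or Cy5); each marker shape is 1 spot position of the gene, the horizontal bar is the gene's value on that array, and the vertical scale differs between panels. The spots of Adgf-E and Dp1 lie close together on every array, whereas on 1 array of replicate 1 the 2 spots of NimB1 lie at 0.64 and 4.23.

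Mitochondrial, lipid, sugar and redox genes made up 9 members and had a median mean of 0.26. Midline uncoordinated (muc) encodes the acetyltransferase core of the pyruvate dehydrogenase complex, which feeds the citric acid cycle. It stood at 0.62 and 0.85 in replicate 1 and at 0.26 and 0.10 in replicate 3 (mean 0.46 ± 0.39, SD, n = 2, or 1.37-fold). All 8 spot values were above 0, and both arrays of replicate 1 exceeded both of replicate 3. Ttc19, which maintains respiratory complex III, gave 0.073 and 0.40 in replicate 1 and 0.64 and 0.42 in replicate 3 (mean 0.38 ± 0.21, SD, n = 2), the reverse order of the pools. Pudgy (pdgy), an acyl-CoA synthetase gene, averaged 0.31 and also stood higher in replicate 3, at 0.69 and 0.40, than in replicate 1, at 0.012 and 0.14.

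LpR2, a receptor that takes up lipophorin lipids from the blood, averaged 0.29 but had 2 arrays near 0, at 0.0024 and 0.028. The related gene LpR1 averaged 0.018. The mitochondrial protease subunit gene ClpX (0.26), the iron-sulphur assembly gene Mms19 (0.23) and the sugar transporter gene pippin (0.22) lay lower. Big bubble 8 (bb8), a glutamate dehydrogenase of the testis, stood at 0.32 and 0.092 in replicate 1 and at 0.24 and 0.17 in replicate 3 (mean 0.20). Its 8 spots disagreed, with 20 of 32 values above 0 and a span of -0.86 to 1.19. Cyt-b5-r, related to cytochrome b5 fusion enzymes, was the lowest member, at 0.41 and 0.12 in replicate 1 and 0.072 and 0.20 in replicate 3.

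Protein biogenesis and turnover were represented by 6 members. The betaNACtes3 gene encodes a testis type of the beta subunit of the nascent polypeptide-associated complex, which meets new proteins at the ribosome. It stood at 0.83 and 0.24 in replicate 1 and at 0.059 and 1.47 in replicate 3 (mean 0.65 ± 0.17, SD, n = 2, or 1.57-fold). The pools were alike only on average, since each held 1 high and 1 low array, and without the highest array the mean was 0.37. The gene has close copies, whose RNA could bind the same spots, and the general beta subunit gene bic averaged -0.018. Atg8a encodes the ubiquitin-like protein that is joined to autophagosome membranes. Its values were 0.62 and 0.65 in replicate 1 and 0.14 and 0.46 in replicate 3 (mean 0.47 ± 0.23, SD, n = 2, or 1.38-fold), with 8 of 8 spot values above 0. Its testis-type copy Atg8b averaged 0.25 but lay below 0 on 1 array, at -0.22, and so was no member. Of the other Atg genes, Atg101, Atg13, Atg4b and Atg9 averaged 0.12, -0.035, 0.086 and 0.024, and Atg18a, left out by symbol, averaged 0.39.

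Usp1, a deubiquitinating enzyme gene, averaged 0.30, while the 5 other measured Usp genes stood between -0.022 (Usp7) and 0.23 (Usp47). Slimb (slmb), the F-box gene of an SCF ubiquitin ligase, averaged 0.29. In slmb both arrays with extract in Cy5, at 0.48 and 0.51, exceeded those with extract in Cy3, at 0.037 and 0.13. Among 26 measured ubiquitin and proteasome genes on a list, slmb was the only member and the median was -0.024. The list does not name Usp1, so slmb was the only member among the genes it names. Rilpl, a relative of Rab effectors of the lysosome, averaged 0.25, and the caspase gene Strica averaged 0.24. In 5 of the 6 genes the arrays with extract in Cy5 were the higher on average. The same held for 28 of all 66 members and 725 of 1464 characterised genes.

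The 4 genes of signalling and the nervous system were CenG1A, rogdi, Pinocchio (Pino) and dunce (dnc). CenG1A, a GTPase-activating protein for Arf, stood at 0.26 and 0.63 in replicate 1 and at 0.53 and 0.23 in replicate 3 (mean 0.41 ± 0.048, SD, n = 2). The rogdi gene, studied in flies for sleep and memory, averaged 0.32 but differed between pools, with 0.70 and 0.42 in replicate 1 and 0.030 and 0.14 in replicate 3. Pino, known from smell-guided behaviour, averaged 0.32. The cAMP phosphodiesterase gene dnc, needed for olfactory learning, averaged 0.22, and only 4 of its 8 spot values were above 0, between -0.46 and 1.302.

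Of the 5 members with a testis role or with none given here, the highest was milkah (mil), a nucleosome assembly-type gene of the testis. It stood at 0.37 and 0.20 in replicate 1 and at 0.34 and 0.55 in replicate 3 (mean 0.37 ± 0.11, SD, n = 2). These evenly placed averages rested on 8 spots that ran between -1.08 and 1.89, with 27 of 32 values above 0. Among 15 measured genes of a testis-enriched list, 2 were members (betaNACtes3 and mil), 1 belonged to the opposite set, and the median was 0.034. In all, 8 of the 15 had a mean above 0. Of these, ocn and tomboy20 averaged 0.386 and 0.373 but each lay below 0 on at least 1 array. The list does not name the member bb8. The pools are labelled female, and the part of any male tissue in these values was not tested. The genes vrs, SP1173, Ktl and l(1)G0469 averaged 0.30, 0.25, 0.25 and 0.23.

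The lists were general, so most members stood in none. Of 25 lists with a measured gene, 10 held a member, and 12 members stood in a list. The lists are incomplete: the homeobox gene al and the metabolic gene muc, both members, stand on none of them. Another 10 lists with at least 5 measured genes held no member among the genes they name, such as vesicle traffic (19 measured), cell cycle and DNA repair (12) and neuropeptides (12). Of 5 measured Hedgehog pathway genes none was a member and 3 were in the opposite set. That list was singled out from the 25, so nothing is read from its count. Over all 1369 characterised genes eligible by symbol, 66 were members and 64 belonged to the opposite set. The list counts given here and above were not tested against these numbers. By chromosome arm, 25.8% of the members lay on 3R, against 25.8% of all characterised genes, and 15.2% on X, against 15.3%. None lay on chromosome 4, where 19 characterised genes were measured. Only 2 pairs of members lay within 10 protein-coding genes of each other in the RefSeq annotation: rogdi and Fit2 on 3L with 7 genes between them, and Ktl and Synd on 3R with 9.

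The pools and dyes were set against each other as measures the choice did not fix directly, although the need for 4 values above 0 bounds how far they can spread. Replicate 1 was the higher pool for 41 members and replicate 3 for 25, with median pool means of 0.29 and 0.27. For all characterised genes the same counts were 696 and 768. Both arrays of 1 pool lay above both of the other for 26 of the 66 members (15 with replicate 1 higher, 11 with replicate 3 higher), beside 32.9% of all characterised genes. Both arrays with 1 dye order lay above both with the other order for 18 members (9 each way), beside 36.4% of all characterised genes. The median absolute difference between pools was 0.15 for the members and 0.17 for all characterised genes.

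The dye contrast was measured as 0.5 times the difference of the arrays with extract in Cy3 minus those with extract in Cy5. Its median was 0.025 over the members, and its median size was 0.061 for them and 0.095 for all characterised genes. In limma's test of this contrast 0 of 13607 features passed after adjustment, a share of 0%, and 4.75% had an unadjusted p under 0.05. Of the members 0 had such an unadjusted p, and their smallest adjusted p was 0.962. Since genes with opposite signs on the dye swap cannot be members, this low count follows from the choice and is given only as a value. NimB1, at -0.45, and Adgf-E, at 0.29, had the largest dye contrasts of the members as well as the largest pool differences, at 1.11 and 1.01.

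**Figure D3:**
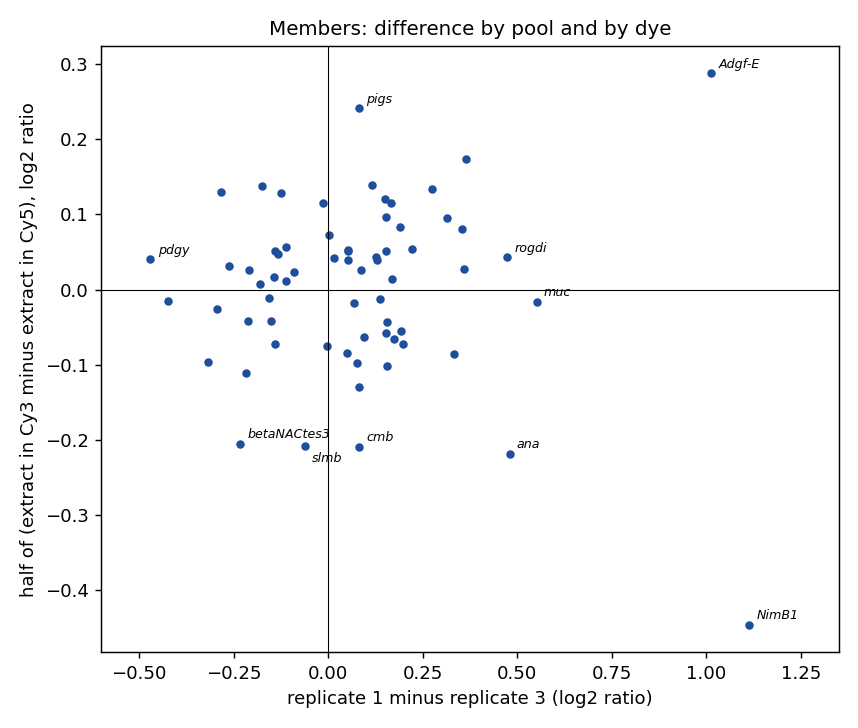
For each of the 66 members (points), the mean of replicate 1 minus that of replicate 3 (horizontal, log2 ratio) against 0.5 times the difference between arrays with extract in Cy3 and in Cy5 (vertical, log2 ratio). Most points lie within 0.5 of 0 across and within 0.25 of 0 up or down, and NimB1 and Adgf-E stand apart on both axes.

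**Figure D4:**
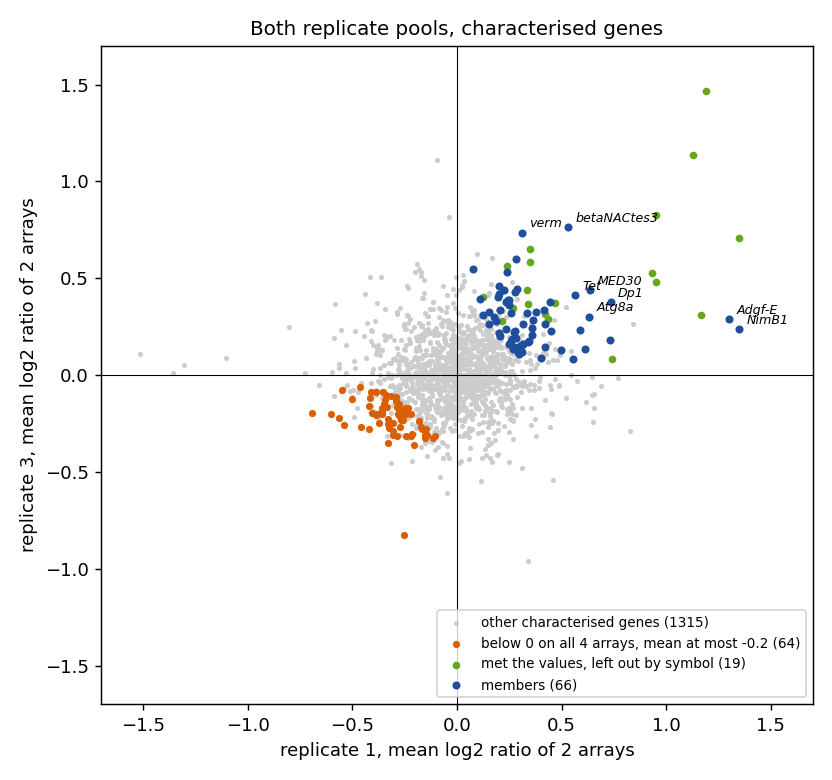
Mean log2 ratio of the 2 arrays of replicate 1 (horizontal) against that of replicate 3 (vertical) for characterised genes: 66 members (blue), 19 genes that met the values but were left out by symbol (green), 64 genes below 0 on all arrays with a mean of -0.2 or less (orange) and the others (grey). Members occupy the upper right by their choice, and 5 characterised genes lie outside the axes.

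Agreement between spots of a gene was used to describe how firmly a member stood above 0. The members had 156 spots in all: 58 members had 2, 6 had 4 and 2 had 8. Of their 624 spot values 538 (86.2%) were above 0, beside 51.2% over all characterised genes. Every spot was above 0 on every array for 26 of the 66 members, while 2.87% of all characterised genes had this. Since gene averages above 0 chose the members, nothing is read from that gap. By role, the 26 comprised 7 of 16 genes of transcription and RNA, 6 of 13 of muscle and cell shape, 5 of 8 of matrix and cuticle, 3 of 6 of protein turnover, 2 of 9 of mitochondria and lipids, 2 of 5 of immunity, 1 of 4 of signalling and 0 of the remaining 5. Both pool means reached 0.2 for 37 members, and the lowest single array reached 0.2 for 10.

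The threshold was crossed with little room. The 3 members of lowest mean were bb8, flw and Cyt-b5-r, at 0.203, 0.202 and 0.201. Just outside it were Idgf3, a chitinase-like growth factor gene, the synaptic gene Rim, and EDTP, a phosphoinositide phosphatase gene, at 0.199, 0.199 and 0.198. EDTP was even across arrays, at 0.17 and 0.15 in replicate 1 and 0.24 and 0.24 in replicate 3, whereas Idgf3 gave 0.29 and 0.098 in replicate 1 and 0.40 and 0.00027 in replicate 3. Rim gave 0.11 and 0.29 in replicate 1 and 0.34 and 0.058 in replicate 3. In all, 45 characterised genes eligible by symbol lay above 0 on all 4 arrays with a mean below 0.2.

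Other genes missed membership by 1 array. Of 136 eligible genes with a mean of at least 0.2, 53 had 3 arrays above 0. Nearest to 0 on the remaining array were MFS12, Tbca and Mkp3, at -0.0032, -0.0096 and -0.011. MFS12, a transporter gene of the major facilitator type, stood at 0.65 on the other array of replicate 1 and at 0.45 and 0.16 in replicate 3 (mean 0.31). Mkp3, a phosphatase that restrains MAP kinase signalling, gave 0.32 and 0.50 in replicate 1 and 0.44 on the other array of replicate 3 (mean 0.31). The tubulin cofactor gene Tbca gave 0.42 and 0.56 in replicate 1 and 0.22 on the other array of replicate 3 (mean 0.30). The means of MFS12 and Mkp3 lay above the members' median, and that of Tbca just under it.

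A single array carried much of the mean of several members. For 31 of the 66 the mean fell under 0.2 when 1 array was left out, and for 19 it was more than 1.5 times smaller. Besides those given above, the mean without 1 array was 0.19 for pigs, 0.20 for rogdi, 0.19 for pdgy, 0.18 for LpR2 and 0.15 for each of bel, ClpX, SP1173 and l(1)G0469. It was 0.14 for Spn27A and htk, 0.13 for Synd and Cyt-b5-r, 0.12 for Atx2 and 0.089 for flw. In most of the 19 the array left out was that of replicate 1 with extract in Cy3. It also held the highest value of 23 members, the largest count of any array. Over all 1464 characterised genes it held the highest value of 375, and the other array of replicate 1 that of 400. Over all spots the replicate 1 array with extract in Cy3 had the highest median absolute deviation, at 0.26 against 0.19 to 0.24 elsewhere. The SD was highest on the other array of replicate 1, at 0.518 against 0.457. The part of these spreads in the counts was not tested.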

How the data were processed

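RNA of 2 pairs of pools was compared on 4 arrays of 2 colours, per the labels. The authors deposited 1 log ratio per spot, read here as log2. No source used here gives the base, the numerator, the normalization or the spot filters; base 2 and extract over ethanol were assumed, per the labels' channel order. No intensities or backgrounds were used here, so spots not above background were not marked. Spots of 1 gene were averaged per array (5666 spots with 1 gene, 2377 genes; 152 spots listed several genes and were named for none), other spots stayed single features (13607 in all), and arrays were centred on their medians, which moved no array by more than 0.00218. All 66 members' symbols matched NCBI RefSeq's Release 6 gene table by gene number.

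Each pool's dye-swap arrays were averaged, and the pool values were tested against 0 with lmFit and eBayes of limma 3.58.1 (R 4.3.3; 1 residual and 8.19 prior degrees of freedom), with Benjamini-Hochberg adjustment over all features at 0.05. The dye contrast was tested the same way. The fits were also run on simulated data with added changes larger than any member's mean. That run says nothing about changes of the members' size. Tables were made with pandas 2.3.3 in Python 3.11.15. The p-values rest on 2 pools, numbered 1 and 3 in the labels. With more prior than residual degrees of freedom, the variance used for a gene came mostly from all features. Kank, for example, had an SD of 0.0028 between pools but a standard error of 0.149. The p-values therefore say little about a single gene's own spread between pools. The members and gene lists were chosen with earlier results of these data known, and the role groups after the members had been seen. All members are named. Values of every array are given for the 24 of highest mean, the 3 of lowest mean and the 3 nearest genes outside each limit, and for others where arrays differed. Alternatives were the spot summary, no centring, equal array spread, the reverse-label arrays turned, other mean limits, a replicate block and leaving out arrays or pools; 2 on single spots were added after seeing the data. Searches of promoter motifs and protein features were not run.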

Additional observations from a re-analysis of the deposited data

Results flagged for a closer look

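In 5 of 66 members, 1 array stood so far from the other three that its gap passed Dixon's 95% critical value for 4 values. Chance passes about 1 in 20 of the 67 items compared, if values are not chosen by size. The members were chosen with all 4 values above 0, so that rate need not hold for them. Nothing is read from the count. The Mediator gene MED30 stood at 0.782 on the array of replicate 1 with extract in Cy5, against 0.438 to 0.492 on the others. The Nimrod gene NimB1 stood at 2.44 on that array, against 0.0433 to 0.431, and its 2 spots there gave 4.23 and 0.64. The transporter-like gene out stood at 0.482 on it, against 0.2 to 0.237. The gamma-tubulin gene gammaTub37C was low on the same array, at 0.145 against 0.354 to 0.37. The helicase gene bel stood at 0.671 on the array of replicate 1 with extract in Cy3, against 0.13 to 0.17. All 5 distant values lay on arrays of replicate 1. No such comparison was made over all characterised genes, so nothing is read from where they lay. The causes were not tested.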

How the results depend on the processing

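With 2 pools and ratios whose direction is unsettled, the number of arrays limits every value; without signal over background, dim spots could not be told from bright ones. The count of characterised genes meeting the choice was 66, and 67 with spots averaged by the median (64 shared), 66 without centring, and 66 with arrays scaled to equal spread (61 shared). It was 43 with the reverse-label arrays turned (0 shared), 103 with a mean of at least 0.1, 34 with at least 0.3, 26 with every spot above 0 (added after seeing the data), and 96 to 176 when 1 array or pool was left out. The 0 shared had to follow, since members lay above 0 on the arrays that were turned. The median of the members' means, 0.30, was 0.025 with those arrays turned, 0.16 with the spot nearest to 0 (added after seeing the data), and 0.27 to 0.31 when 1 array or pool was left out. A member's mean with those arrays turned is its dye contrast, which the choice kept small. Under the turned reading 38 of the 66 members stayed above 0 and 2 reached 0.2, over a range of -0.45 to 0.29. With the spot nearest to 0, 60 stayed above 0 and 22 reached 0.2. limma called 6 features; it called 10 among named genes alone, 12 over 4 arrays with the replicate block, 42 with arrays scaled to equal spread, 0 with the reverse-label arrays turned, and 0 to 11 when 1 array was left out, where the lone array of a pool is assumed to vary like the other pool. It called 0 of the 66 members in all of these. The causes of the shifts under the other alternatives were not tested. The block compared arrays of 1 pool, whose estimated correlation was -0.244.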
